A study of Danio rerio with 12 samples.

Results

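The genes described here are 40 markers of the cell cycle and of DNA replication, followed through 12 RNA-seq libraries of adult zebrafish liver. They were chosen by symbol, and they matched 42 of the 32520 rows of the expression table, because rrm2 and ube2c each name 2 rows. By role, 15 genes (16 rows) act in DNA replication and its checkpoint, and 25 genes (26 rows) act in mitosis. The libraries came from wild-type fish of the TU strain, 4 months old, in 4 groups of 3: females exposed to bisphenol AF (BPAF, a fluorinated relative of bisphenol A) at 10 µg/L, solvent control females, exposed males and solvent control males. Exposure lasted 28 days and controls received 0.0001% dimethyl sulfoxide (DMSO). The labels found here give no DMSO level for the exposed fish, so solvent and BPAF cannot be told apart. Whether a library is 1 animal or a pool is not stated in the labels, and p-values therefore measure the spread between these libraries alone, which could be technical.

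Values were taken as TPM (transcript share scaled for gene length and library total), a unit inferred from the column sums because the header names none, and the depth behind them is unknown. The rows of a library added up to 978504.61 to 992375.41 TPM, and Spearman correlations between libraries across the 11389 tested genes ran from 0.618 to 0.888. Markers of hepatocytes, the main liver cell, summed to 71141 to 99344 TPM in the female libraries and 223372 to 290181 TPM in the male libraries. In a bulk sample, fewer cells of a type, less RNA per cell and a larger share taken by other transcripts cannot be told apart. The median tested gene was also lower in control females than in control males (log2 difference -0.52).

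Cells copy their DNA in S phase. Origins are bound by the origin recognition complex, Cdc6 and Cdt1 load the ring-shaped MCM helicase there, the GINS complex helps to activate it, and the clamp PCNA holds the polymerases on DNA while ribonucleotide reductase and thymidylate synthase supply nucleotides. Entry into mitosis is driven by cyclin-dependent kinase 1 with cyclins A and B, together with Polo-like and Aurora kinases. Condensins and topoisomerase II shape the chromosomes, kinesins build the spindle, and Cdc20 and Ube2c help to destroy cyclin B and securin so that the protease separase can part the chromatids. Most hepatocytes of an adult liver rest outside the cycle, whereas blood precursors, intestinal epithelium and germ cells divide. Oocytes store messenger RNA of cyclin B and of many mitotic proteins for the first embryonic divisions.

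Most members were low in every liver library. Of the 42 rows, 32 (13 replication, 19 mitosis) reached 1 TPM in at least 3 libraries and were tested. The 10 rows that did not were mcm6, orc1 and chek1 among the replication genes and mki67, birc5a, ncapg, smc2, espl1, cenpf and aspm among the mitosis genes. None of these 10 exceeded 2.04 TPM in a library, and 5 of them stayed below 1 TPM in every library. A member can pass this filter through the libraries in which it is high, so counts over the tested rows describe them and support nothing on their own.

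**Figure D1:**
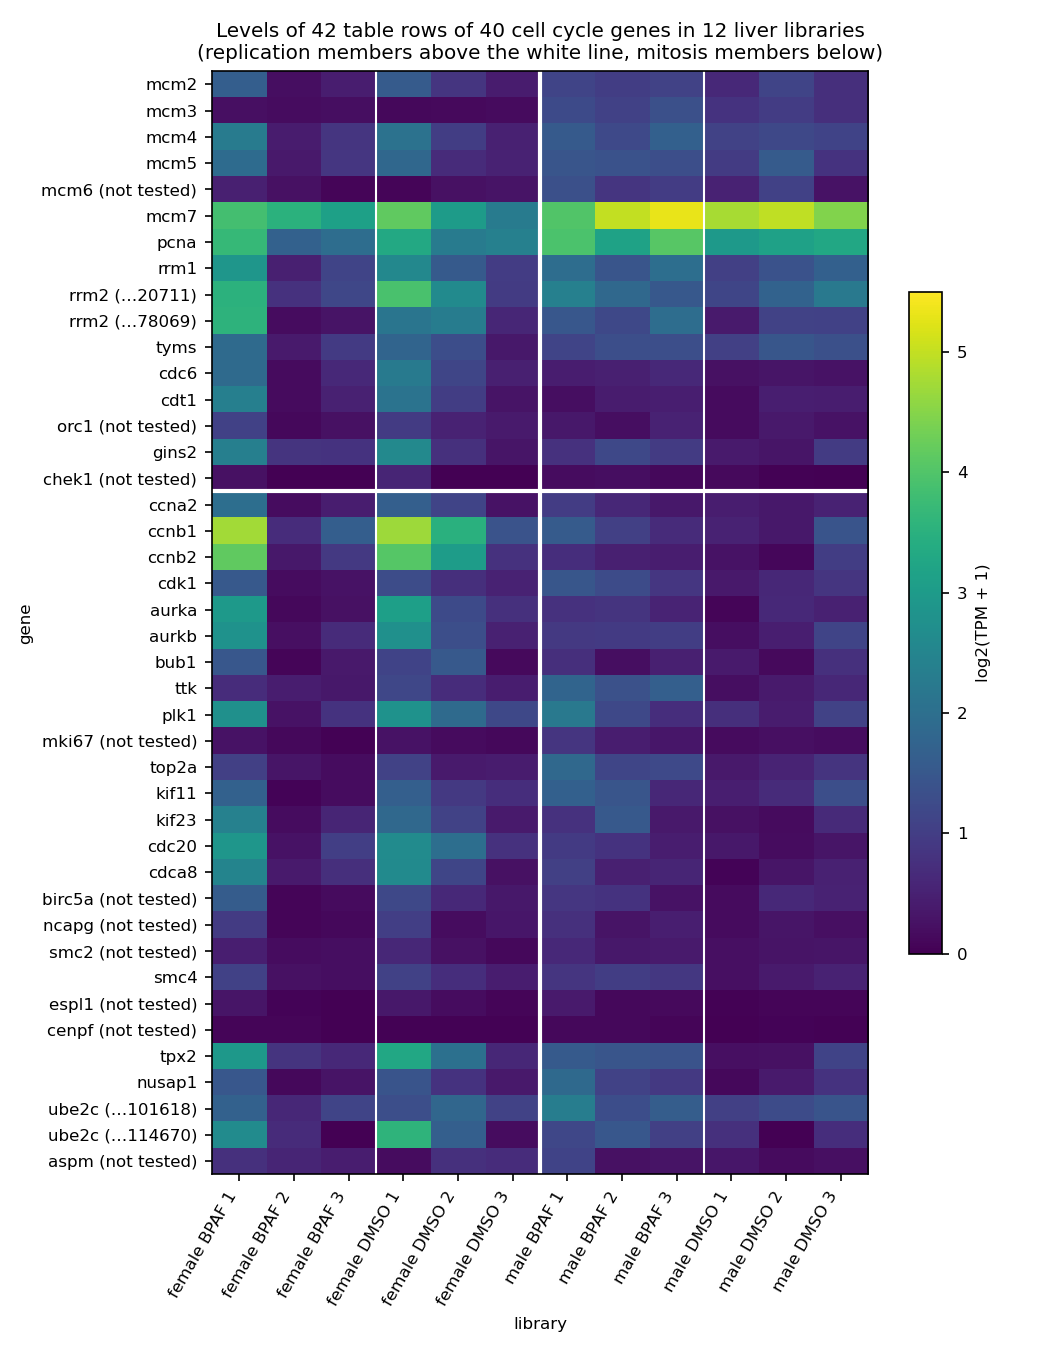
Levels of all 42 rows (down the page) in each of the 12 libraries (across), coloured by log2(TPM + 1), with replication members above the white line and rows below the expression filter marked as not tested. Most rows are brightest in female BPAF 1 and female DMSO 1. In contrast, mcm7 and pcna are at or above 3.88 and 2.27 TPM in every library, and mcm3 is dark in all 6 female libraries.

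Summed over the 16 replication rows, the level was 77.5, 16.4 and 18.3 TPM in exposed females, 72.1, 29.6 and 13.6 TPM in control females, 49.2, 54.3 and 73.5 TPM in exposed males and 41.5, 52.9 and 43.5 TPM in control males. The 26 mitosis rows summed to 108, 6.09 and 10.98 TPM in exposed females, 110, 44.9 and 11.95 TPM in control females, 36.5, 23.1 and 17.9 TPM in exposed males and 6.83, 8.03 and 17.3 TPM in control males. The first female library of each treatment was far above the other females in both sums, and the second control female lay between. Within the female groups the highest mitosis sum was 17.8 times the lowest in exposed fish and 9.18 times in controls, against 2.04 times in exposed males and 2.53 times in control males. The replication sums spread less, by 4.73 and 5.32 times in exposed and control females and by 1.49 and 1.28 times in exposed and control males. Sums weigh abundant rows most. In control males mcm7 and pcna averaged 26.0 and 7.83 TPM of a mean replication sum of 46.0 TPM. Among females these rows spanned 4.33-fold and 5.26-fold. Row by row, the median spread described below was smaller for replication than for mitosis rows in exposed females, and larger in control females.

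**Figure D2:**
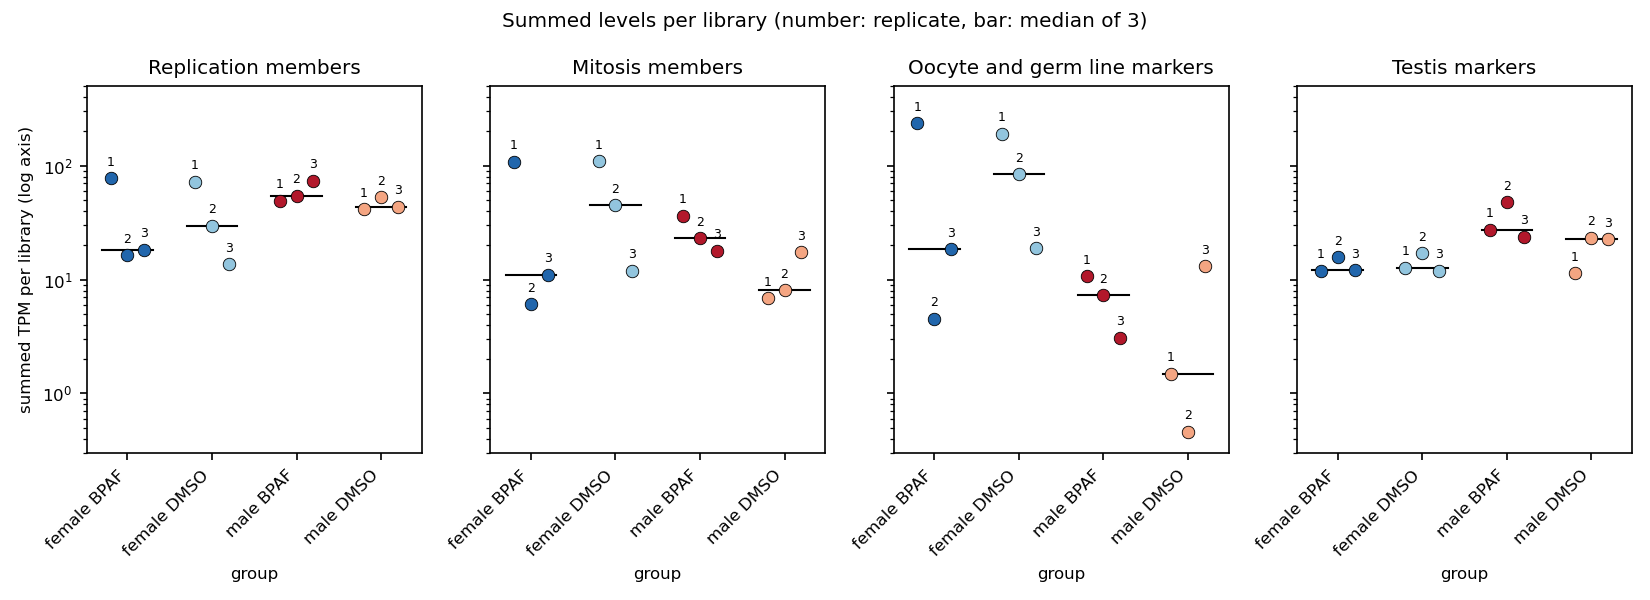
Summed TPM per library on a log axis for the replication members, the mitosis members, oocyte and germ line markers and testis markers, with replicate numbers at the points and a bar at the median of 3 libraries. The order of the 6 female libraries in the mitosis panel (108 and 110 TPM at the top, 6.09 TPM at the bottom) is nearly that in the oocyte marker panel (237 and 190 TPM at the top, 4.51 TPM at the bottom).

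Among the genes that license origins, cdc6 stood at 2.72, 0.12 and 0.56 TPM in exposed females, 3.77, 1.22 and 0.39 TPM in control females, 0.36, 0.39 and 0.56 TPM in exposed males and 0.19, 0.24 and 0.20 TPM in control males. The males lay close together, and all 3 exposed males were above all 3 control males, while the females spanned a 31.4-fold range. Its partner cdt1 ranged from 0.11 to 4.15 TPM in females and from 0.11 to 0.38 TPM in males. The origin recognition subunit orc1 peaked at 1.08 TPM in females, against 0.45 TPM in males. The peaks of gins2, a GINS subunit, were 5.02 TPM in females, against 1.29 TPM in males.

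The 6 subunits of the MCM helicase, which act as a single ring, were not at equal levels. The subunit mcm7 stood at 13.5, 10.4 and 7.67 TPM in exposed females, 16.8, 7.07 and 3.88 TPM in control females, 15.1, 31.0 and 38.6 TPM in exposed males and 26.4, 30.5 and 21.0 TPM in control males. It was above every other MCM subunit in all libraries. For mcm2 the values were 2.13, 0.16 and 0.35 TPM in exposed females, 1.99, 0.80 and 0.34 TPM in control females, 1.17, 0.99 and 1.13 TPM in exposed males and 0.56, 1.17 and 0.66 TPM in control males. The subunit mcm5 had 2.81, 0.29 and 0.84 TPM in exposed females, 2.58, 0.61 and 0.44 TPM in control females, 1.75, 1.63 and 1.51 TPM in exposed males and 0.93, 1.99 and 0.76 TPM in control males. Both followed the pattern of a high first female library in each treatment, as did mcm4, which spanned 0.33 to 3.85 TPM in females and 1.12 to 2.2 TPM in males.

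The subunit mcm3 did not follow it. It had 0.17, 0.14 and 0.16 TPM in exposed females, 0.08, 0.10 and 0.12 TPM in control females, 1.36, 1.1 and 1.54 TPM in exposed males and 0.76, 0.96 and 0.68 TPM in control males, so that every male library was above every female library. The subunit mcm6 was also low in females, at 0.05 to 0.39 TPM against 0.20 to 1.54 TPM in males.

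The clamp gene pcna was the most abundant member after mcm7 in the males, at 11.9, 2.27 and 2.92 TPM in exposed females, 8.98, 3.92 and 4.25 TPM in control females, 14.45, 8.03 and 15.9 TPM in exposed males and 6.74, 7.90 and 8.86 TPM in control males. Apart from the first library of each female group, all females were below all males. For rrm1, the large subunit of ribonucleotide reductase, values were 6.36, 0.40 and 1.18 TPM in exposed females, 4.96, 1.96 and 0.97 TPM in control females, 2.93, 1.72 and 2.94 TPM in exposed males and 1.07, 1.62 and 2.21 TPM in control males. The thymidylate synthase gene tyms had 2.73, 0.31 and 0.90 TPM in exposed females, 2.41, 1.46 and 0.28 TPM in control females, 1.20, 1.51 and 1.49 TPM in exposed males and 1.06, 1.78 and 1.53 TPM in control males. For both genes 2 female libraries were above every male library and at least 2 were below every male library.

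The small reductase subunit rrm2 has 2 rows, which may share reads. The row ENSDARG00000020711 had 10.6, 0.72 and 1.26 TPM in exposed females, 14.1, 5.17 and 0.95 TPM in control females, 4.24, 2.61 and 1.84 TPM in exposed males and 1.23, 2.31 and 3.67 TPM in control males. The row ENSDARG00000078069 had 10.7, 0.14 and 0.22 TPM in exposed females, 3.40, 3.99 and 0.51 TPM in control females, 1.83, 1.30 and 2.91 TPM in exposed males and 0.32, 1.11 and 1.1 TPM in control males. The second row had the wider female range, 76.7-fold against 19.6-fold. The checkpoint kinase gene chek1 was at 0.48 TPM or less throughout and listed at 0 in 4 female libraries and 1 control male.

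The cyclin B genes swung widely among the females. The gene ccnb1 stood at 25.5, 0.62 and 2.12 TPM in exposed females, 24.7, 10.2 and 1.65 TPM in control females, 1.98, 1.06 and 0.61 TPM in exposed males and 0.43, 0.28 and 1.71 TPM in control males. Its relative ccnb2 had 16.8, 0.27 and 0.88 TPM in exposed females, 15.6, 7.22 and 0.72 TPM in control females, 0.64, 0.39 and 0.36 TPM in exposed males and 0.21, 0.07 and 1 TPM in control males. The same 3 female libraries, both first ones and the second control, were the highest for both, and among control males the third library was the highest for both. The partner kinase gene cdk1, by contrast, had 1.92, 0.14 and 0.20 TPM in exposed females, 1.42, 0.68 and 0.44 TPM in control females, 1.79, 1.38 and 0.82 TPM in exposed males and 0.30, 0.53 and 0.79 TPM in control males. Its female peaks were near the level of the exposed males, all of which were above all control males. The cyclin A gene ccna2 had 2.97, 0.14 and 0.35 TPM in exposed females, 2.19, 1.20 and 0.21 TPM in control females, 0.98, 0.52 and 0.28 TPM in exposed males and 0.36, 0.28 and 0.45 TPM in control males.

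Of the mitotic kinases, plk1 stood at 5.81, 0.21 and 0.75 TPM in exposed females, 6.01, 2.74 and 1.30 TPM in control females, 3.66, 1.27 and 0.65 TPM in exposed males and 0.67, 0.34 and 1.12 TPM in control males. The kinase aurkb, the catalytic part of the chromosomal passenger complex, had 5.96, 0.17 and 0.60 TPM in exposed females, 5.81, 1.51 and 0.41 TPM in control females, 0.87, 0.91 and 0.99 TPM in exposed males and 0.15, 0.37 and 1.20 TPM in control males. Both groups of each sex overlapped for these kinases. The spindle checkpoint kinase gene ttk differed from them, with 0.63, 0.35 and 0.27 TPM in exposed females, 1.26, 0.62 and 0.36 TPM in control females, 2.44, 1.59 and 2.17 TPM in exposed males and 0.16, 0.32 and 0.53 TPM in control males. Here the 3 exposed males were above all 9 other libraries. The centrosomal kinase gene aurka peaked at 7.62 TPM in females, against 0.78 TPM in males. The checkpoint kinase gene bub1 peaked at 1.88 TPM in females, against 0.69 TPM in males.

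The gene cdc20, an activator of the anaphase-promoting complex, had 6.36, 0.20 and 1.02 TPM in exposed females, 5.32, 2.97 and 0.71 TPM in control females, 0.91, 0.74 and 0.36 TPM in exposed males and 0.27, 0.13 and 0.25 TPM in control males. All exposed males and all control females were above all control males. The topoisomerase gene top2a had 1.07, 0.25 and 0.14 TPM in exposed females, 1.13, 0.32 and 0.34 TPM in control females, 2.64, 1.21 and 1.32 TPM in exposed males and 0.30, 0.47 and 0.77 TPM in control males. The proliferation marker mki67, a chromosome surface protein of dividing cells, had 0.20, 0.08 and 0.03 TPM in exposed females, 0.20, 0.11 and 0.09 TPM in control females, 0.81, 0.36 and 0.26 TPM in exposed males and 0.11, 0.17 and 0.13 TPM in control males. For both genes the 3 exposed males were the 3 highest libraries of all 12.

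The remaining mitosis members are given by their ranges. In the spindle group, tpx2, which promotes microtubule assembly, spanned 0.52 to 8.80 TPM in females and 0.17 to 1.95 TPM in males, and the kinesins kif11 and kif23 reached 2.27 and 4.35 TPM in females and 2.23 and 1.88 TPM in males. The microtubule binder nusap1 peaked at 1.80 TPM in females, against 2.68 TPM in males, and the spindle pole gene aspm at 0.69 TPM in females, against 1.15 TPM in males. In the passenger complex, cdca8 (borealin) peaked at 5.23 TPM in females, against 1.07 TPM in males, and birc5a (survivin) at 2.04 TPM in females, against 0.84 TPM in males. The condensin genes smc4, smc2 and ncapg reached 1.09, 0.54 and 1.03 TPM in females and 1, 0.55 and 0.70 TPM in males. The separase gene espl1 and the kinetochore gene cenpf stayed at or below 0.31 and 0.08 TPM. The ubiquitin-conjugating gene ube2c has 2 rows with the same description. Of these, ENSDARG00000101618 ranged from 0.54 to 2.51 TPM in females, against 1.05 to 4.02 TPM in males, and ENSDARG00000114670 from 0 to 10.9 TPM in females and 0 to 1.83 TPM in males.

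The spread between libraries of a group was measured as the standard deviation (SD) of log2(TPM + 1) over its 3 libraries. In exposed females the median SD was 0.90 over the 13 tested replication rows and 1.11 over the 19 tested mitosis rows, against 0.33 over all 11389 tested genes. In control females it was 0.81 and 0.73, against 0.28 over all tested genes. In males the members spread less than the median gene: 0.21 for replication and 0.30 for mitosis rows against 0.40 for all genes in exposed males, and 0.25 and 0.29 against 0.36 in control males. The members also lay lower, at median levels of 1.23 and 0.59 log2(TPM + 1) in exposed and control males. All tested genes had 2.28 and 2.01. This scale compresses spread at low levels, and genes of matched level were not compared. The SD was above the median of all genes for 30 of 32 rows in exposed females and 31 of 32 in control females, but for 10 in exposed males and 9 in control males. The filter bore on the female counts. The rows cdc6, cdt1, ccna2, aurka, bub1, gins2 and smc4 reached 1 TPM in 3 libraries only, female BPAF 1 and female DMSO 1 among them. Leaving out either of these libraries left 25 rows tested. The female spread therefore follows in part from the filter and supports nothing on its own. The widest were ccnb1 at 2.11 in exposed females and the second ube2c row at 1.70 in control females, and the narrowest was mcm3 at 0.02 and 0.03. Replication and mitosis rows overlapped in their spread in all 4 groups.

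**Figure D3:**
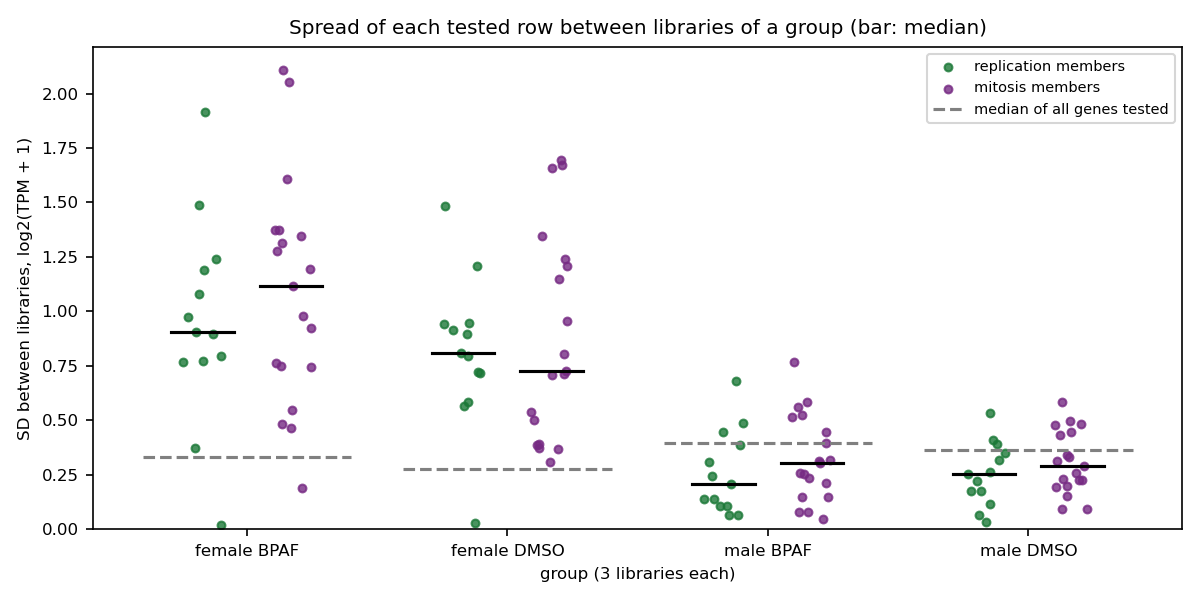
Standard deviation of log2(TPM + 1) between the 3 libraries of each group for every tested row, with replication members at the left and mitosis members at the right of each group, a black bar at their median and a dashed line at the median of all tested genes. Medians of 0.73 to 1.11 in the female groups lie above the dashed lines at 0.33 and 0.28. Medians of 0.21 to 0.30 in the male groups lie below those at 0.40 and 0.36. The dashed lines are not matched to the level of the members. Some rows passed the filter only through female libraries in which they were high, which bears on the female spread.

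The female spread came from the same libraries in nearly all rows. Female BPAF 1 was the highest exposed female in 32 of 32 tested rows, where it was the highest in 58.4% of all genes, and female DMSO 1 was the highest control female in 28 of 32 rows, against 21.5% of all genes. These 2 libraries were the top pair of the 6 female libraries in 28 of 32 rows, a position they held in 10.5% of all tested genes. The filter bore on these counts, since cdc6, cdt1, ccna2, aurka and bub1 reached 1 TPM only in these libraries and female DMSO 2. Likewise gins2 and smc4 reached it only in these libraries and male BPAF 2. At the low end stood female BPAF 2, the lowest of the 6 in 22 of 32 rows against 21.8% of all genes. In control males the third library was the highest in 16 of 19 mitosis rows but in 4 of 13 replication rows, against 20.1% of all genes.

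Oocyte and germ line markers moved with these libraries. The 14 listed markers (zp2.1, zp2.2, zp3, zp3b, bmp15, gdf9, zar1, buc, ddx4, dazl, nanos3, piwil1, figla and sycp3) summed to 237, 4.51 and 18.5 TPM in exposed females, 190, 83.7 and 18.7 TPM in control females, 10.7, 7.29 and 3.07 TPM in exposed males and 1.49, 0.46 and 13.1 TPM in control males. Among them the egg coat gene zp2.1 stood at 72.7, 1.65 and 4.21 TPM in exposed females, 54.7, 26.0 and 6.50 TPM in control females, 2.69 TPM in the third control male and 0 in the other 5 males. The 3 female libraries with the highest marker sums were also the 3 highest females in 18 of 19 mitosis rows and 8 of 13 replication rows, against 9.11% of all tested genes. Of these rows, cdc6, cdt1, ccna2, aurka and bub1 reached 1 TPM in these 3 libraries only. They passed the filter through them, which fixed their place in this count. The part of oocyte transcripts in the members' levels was not tested.

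The proportion of the members to these markers varied between genes. In the 6 female libraries ccnb1 ranged 41.2-fold in TPM, but as a share of the marker sum it ranged from 8.80% to 13.7%, a 1.56-fold span. The next narrowest spans were 2.05-fold for cdc20, 2.08-fold for cdt1, 2.09-fold for aurkb and 2.24-fold for ccnb2, whose own levels spanned 31.8-fold, 37.7-fold, 35.1-fold and 62.2-fold. The widest, leaving out 2 rows listed at 0 in some female library, were 156-fold for aspm, 152-fold for mcm6, 73.7-fold for mcm3, 70.2-fold for cenpf and 40.3-fold for mcm7, whose own levels spanned 5.31-fold, 7.8-fold, 2.13-fold, 5-fold and 4.33-fold. Replication and mitosis members stood at both ends of this measure, which describes 6 libraries and carries no test.

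Relatives of 4 members are given beside them, of which mcm3l and mcm6l were picked after their values were seen. Distinct maternal and zygotic forms of MCM3 and MCM6 are known from Xenopus. The gene mcm3l had 3.34, 0 and 0.09 TPM in exposed females, 2.88, 1.1 and 0.23 TPM in control females, 0.02, 0.02 and 0.04 TPM in exposed males and 0, 0 and 0.23 TPM in control males, and the sexes overlapped. The gene mcm6l had 2.05, 0.07 and 0.22 TPM in exposed females, 1.55, 0.56 and 0.21 TPM in control females, and 0.05 TPM or less in every male. The survivin relative birc5b, needed in the zebrafish egg for the first divisions, had 21.4, 0.29 and 2.23 TPM in exposed females, 29.6, 8.30 and 0.84 TPM in control females, 1.76 TPM in the third control male and 0 in the other 5 males. The cyclin A relative ccna1 had 18.3, 0.35 and 1.60 TPM in exposed females, 17.8, 3.44 and 1.59 TPM in control females, 0.37, 0.20 and 0 TPM in exposed males and 0, 0 and 2.15 TPM in control males. The members birc5a and ccna2 were highest in the same female libraries as these relatives. The sex differences of mcm3l, ccna1 and birc5b did not pass in either treatment (limma adjusted p = 0.0938 to 0.258).

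**Figure D4:**
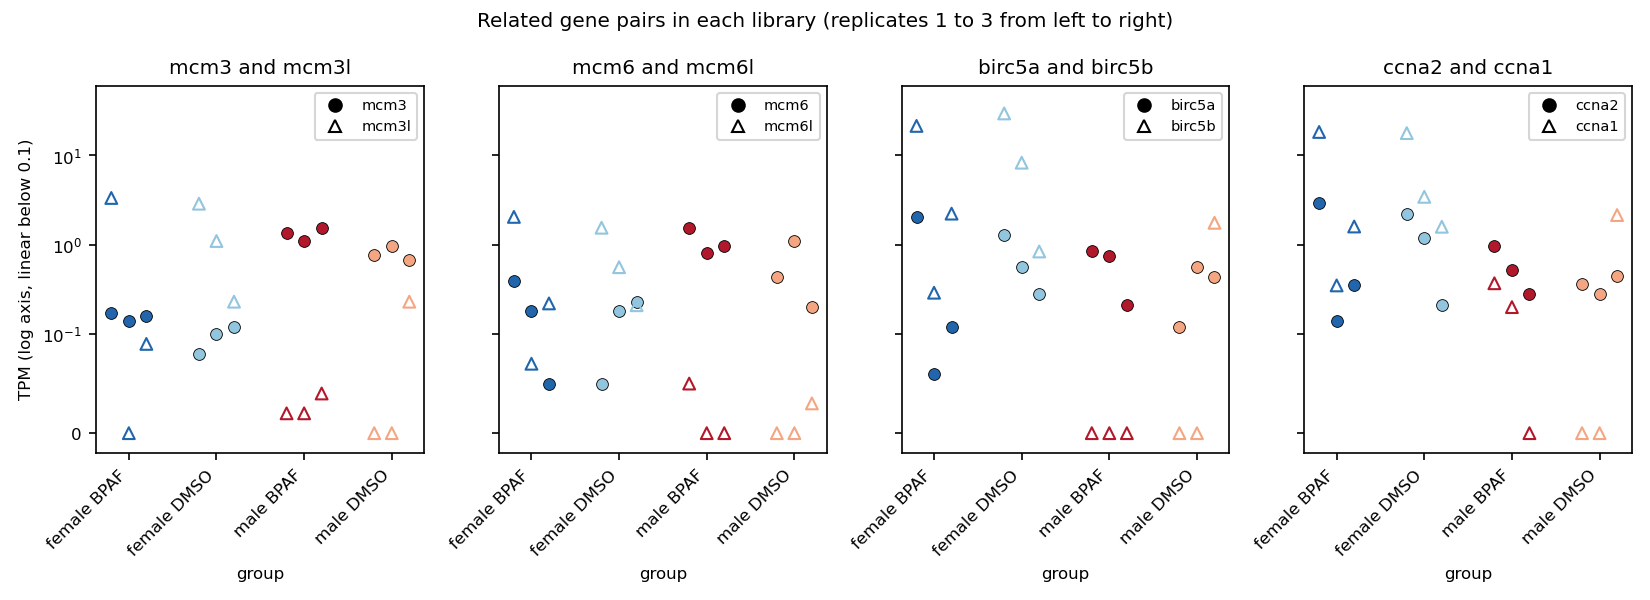
TPM of 4 related gene pairs in each library (filled circles for the member, open triangles for its relative) on a log axis that is linear below 0.1 TPM. The relatives mcm3l, mcm6l, birc5b and ccna1 reach 3.34, 2.05, 29.6 and 18.3 TPM in female libraries and are near 0 in most males, while mcm3 and mcm6 are at 0.39 TPM or less in females.

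Exposure to BPAF was compared within each sex to ask whether the livers differ in cell cycle transcripts after 28 days. Tests used log2(TPM + 1) in limma over all 12 libraries, with Benjamini-Hochberg adjustment over all tested genes and a call at an adjusted p under 0.05. In exposed against control males 0 of 32 rows were called, and 0.0527% of all tested genes were (0.0439% higher and 0.00878% lower). At an unadjusted limma p under 0.05 there were 2 of 32 rows, ttk and top2a, a share similar to the 722 of 11389 tested genes. Both rows needed exposed males at 1 TPM to pass the filter. The fitted log2 difference of ttk was 1.20 ± 0.24 (SE, limma adjusted p = 0.219). Its level was 2.07 ± 0.434 TPM in exposed and 0.337 ± 0.186 TPM in control males (SD, n = 3 each). For top2a the difference was 0.82 ± 0.31 (SE, limma adjusted p = 0.692), with levels of 1.72 ± 0.796 TPM in exposed and 0.513 ± 0.238 TPM in control males. Over 21 alternatives the limma adjusted p of ttk ran from 0.0860 to 1.

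Fitted differences were above 0 in 31 of 32 rows in males, where 80.2% of all tested genes were. The median was 0.28 over replication rows and 0.51 over mitosis rows, against 0.24 over all tested genes. With trimmed-mean scaling the median of all genes moved to -0.02 and that of the members to 0.18, with 26 rows above 0. Without male DMSO 1 the medians of the members and of all tested genes were both 0.31. All 3 exposed males were above all 3 control males in 4 of 13 replication rows (mcm3, mcm4, cdc6 and 1 rrm2 row) and in 8 of 19 mitosis rows (cdk1, ttk, top2a, cdc20, smc4, tpx2, nusap1 and 1 ube2c row), a state reached by 9.71% of all tested genes. The reverse held for 0 rows and 0.562% of genes. Of the rows with exposed males above, mcm3 reached 1 TPM in the exposed males only. The rows cdk1, ttk, top2a, smc4 and nusap1 also needed exposed males at 1 TPM to pass the filter. These counts, and that of rows above 0, therefore follow in part from the filter and support nothing on their own. The 95% intervals were wide: for ccnb1 the interval ran from -1.75 to 2.42 and for pcna from -0.46 to 1.66.

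Male BPAF 1 was the highest of the 6 males in 12 of 19 mitosis rows (63.2%), close to its 55.7% of all genes, and in 1 of 13 replication rows. Male BPAF 3 was the highest in 7 of 13 replication rows and 0 mitosis rows, and in 13.1% of all genes. The mitosis sum divided by the replication sum was 0.741, 0.426 and 0.243 in exposed males and 0.165, 0.152 and 0.397 in control males. In all of these males mcm7 and pcna made up most of the replication sum.

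Among markers of other cell types, 0 were called between the male groups with limma, and most sums overlapped. At an unadjusted limma p under 0.05 were 5 of 9 tested intestine, 2 of 8 leukocyte and 1 of 8 oocyte and germ line markers. Over all tested genes there were 722 of 11389. The 10 testis markers summed to 27.2, 47.9 and 23.8 TPM in exposed males and 11.4, 23.2 and 22.6 TPM in control males, so every exposed male was above every control male, although tssk6 was at 0 in all libraries and gsdf alone, at 16.2 to 26.1 TPM in exposed and 8.59 to 21.8 TPM in control males, made up most of the sum in all 6 males. The meiotic and germ cell genes sycp3 and piwil1 had 2.84, 2.08 and 0.99 TPM and 2.86, 2.02 and 0.44 TPM in exposed males, against 0.20, 0 and 0 TPM and 0.18, 0 and 0 TPM in control males. Both are in the oocyte and germ line list but were below the filter and not tested. The 8 tested genes of that list had a median difference of -0.39, with 2 above 0 (dazl and ddx4) and 6 below. The egg coat genes zp2.1, zp2.2 and zp3 were at 0 in all exposed males and at 2.69, 4.22 and 1.51 TPM in the third control male. Intestine markers summed to 1718, 1337 and 6079 TPM in exposed males and 1197, 1114 and 1599 TPM in control males. Their 9 tested genes were all above 0, with a median log2 difference of 1.81. Leukocyte markers summed to 382, 315 and 526 TPM in exposed males and 252, 264 and 395 TPM in control males, and blood progenitor markers to 17.1, 8.85 and 11.4 TPM and 8.17, 11.4 and 6.27 TPM. Fitted differences were above 0 in 7 of 8 leukocyte and 3 of 4 blood progenitor markers (medians 0.50 and 0.24), against 80.2% of all tested genes. Exocrine pancreas markers summed to 209, 129 and 482 TPM in exposed males and 160, 477 and 696 TPM in control males, with 13 of 14 fitted differences below 0. Erythrocyte markers summed to 4671, 2790 and 2847 TPM in exposed males and 5498, 1761 and 4271 TPM in control males, with 8 of 9 below 0. The part of these cells in the male values was not tested.

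**Figure D5:**
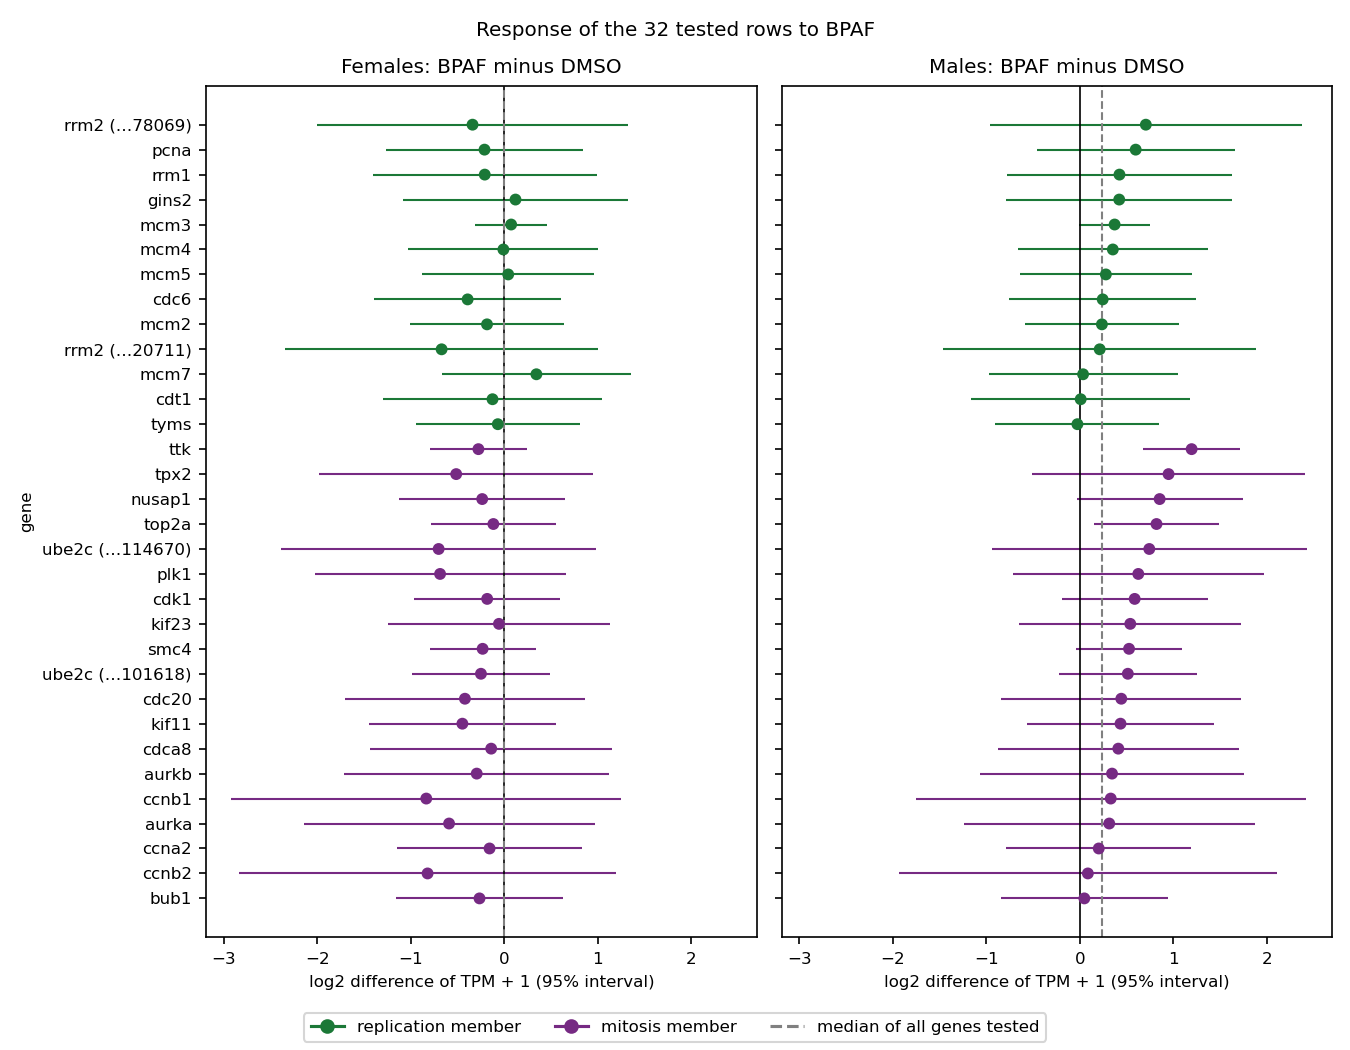
Fitted difference, exposed minus control, of log2(TPM + 1) for the 32 tested rows with 95% intervals, for females at the left and males at the right, with replication members in green, mitosis members in purple and a dashed line at the median of all tested genes. In males the points lie between -0.03 and 1.20 and in females between -0.84 and 0.34, and none of them passed the adjusted threshold.

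In exposed against control females 0 of 32 rows were called, as were 0% of all tested genes, and 0 rows had an unadjusted limma p under 0.05. Of all tested genes, 157 of 11389 had one. The median difference was -0.13 over replication rows and -0.28 over mitosis rows, against -0.01 over all tested genes. Differences were above 0 in 4 of 32 rows, against 47.8% of all tested genes, and all 19 mitosis rows were below 0. The median over the members, -0.23, turned to 0.11 without female DMSO 1 and to 0.07 without female BPAF 2, was -0.02 without female BPAF 3, and was -0.78 without female BPAF 1 and -0.54 without female DMSO 3. The largest differences were -0.84 ± 0.95 for ccnb1 and -0.82 ± 0.93 for ccnb2 (SE), with averages of 9.42 ± 14.0 TPM of ccnb1 in exposed and 12.2 ± 11.7 TPM in control females (SD, n = 3 each). The groups overlapped in every row but mcm3, whose 3 exposed females were above the 3 controls, as in 2.35% of all genes (0.157 ± 0.0153 against 0.1 ± 0.02 TPM, limma adjusted p = 1). The oocyte markers summed to 86.5 ± 130 TPM in exposed and 97.5 ± 86.4 TPM in control females.

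The female response minus the male response was also fitted. It was called in 0 of 32 rows and in 0% of all tested genes, and 1 row, ttk, had an unadjusted limma p under 0.05 (log2 difference -1.47 ± 0.34, SE, adjusted p = 0.995). Of all tested genes, 368 of 11389 had one. The difference was above 0 in 1 of 32 rows, against 23.5% of all tested genes. The median was -0.36 over replication rows and -0.89 over mitosis rows, against -0.25 over all tested genes. The comparisons share libraries, so these values repeat those given for the sexes.

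The sexes were then compared within each treatment, where the scaling of the libraries bears on every value. Among controls, 2 of 32 rows were called, both lower in females: mcm3 (log2 difference -0.71 ± 0.18, SE, limma adjusted p = 0.0172) and mcm7 (-1.59 ± 0.46, adjusted p = 0.0306). Among all tested genes 23.3% were called, 2.1% higher and 21.2% lower in females. Control females had 0.1 ± 0.02 TPM of mcm3 and 9.25 ± 6.72 TPM of mcm7, and control males 0.800 ± 0.144 and 26.0 ± 4.78 TPM (SD, n = 3 each). Members above 0 included cdc20 (1.53 ± 0.59, limma adjusted p = 0.0776), ccnb1 (2.42 ± 0.95, adjusted p = 0.0823) and ccnb2 (2.17 ± 0.93, adjusted p = 0.103), none of which passed. With the replicate block (limma adjusted p = 0.0449), a pseudocount of 0.1 (0.0446) or the compared groups alone (0.0483), cdc20 was called higher in females, and without female BPAF 1 (0.0247 to 0.0347) or female DMSO 3 (0.0410 to 0.0443) all 3 were. All 3 control females were above all 3 control males for cdc6, aurka, plk1 and cdc20, where 4.72% of all genes were, and below them for mcm3 and mcm7, where 40.8% of all genes were. The rows cdc6 and aurka reached 1 TPM in female BPAF 1, female DMSO 1 and female DMSO 2 only, and cdc20 in those and female BPAF 3 only. They passed the filter through females in which they were high, so their place here supports nothing on its own.

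Among exposed fish, 5 of 32 rows were called, all lower in females, where 47.6% of all tested genes were called and 45.7% were lower and 1.91% higher. These were mcm3 (-1.01 ± 0.18, SE, limma adjusted p = 0.00257), ttk (-1.11 ± 0.24, 0.00546), top2a (-0.89 ± 0.31, 0.0335), mcm7 (-1.28 ± 0.46, 0.0402) and pcna (-1.28 ± 0.48, 0.0476). Exposed females had 0.417 ± 0.189 TPM of ttk and 5.71 ± 5.40 TPM of pcna, and exposed males 2.07 ± 0.434 and 12.8 ± 4.19 TPM (SD, n = 3 each). In this comparison 0 rows had all females above all males, against 3.07% of genes, and 4 rows had all females below, against 54% of genes. The rows called among controls and among exposed fish share no library, yet the spread in the fit is common to both. The row mcm3 reached 1 TPM in the exposed males only (1.36, 1.1 and 1.54 TPM). It thus passed the filter through the group in which it was then higher, so its call supports nothing on its own. The row ttk reached 1 TPM in the exposed males and female DMSO 1 only, and top2a in the exposed males, female BPAF 1 and female DMSO 1 only. Both also needed exposed males to pass the filter, and the same limit holds for their calls.

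The members were also set beside all genes, as a description. The median difference of the tested members was 0.54 among controls and -0.16 among exposed fish, against -0.52 and -0.78 for all tested genes. Differences were above 0 in 27 of 32 rows among controls, against 20% of all tested genes, and in 12 of 32 rows among exposed fish, against 11.4%. These counts follow in part from the filter. The rows cdc6, cdt1, ccna2, aurka and bub1 reached 1 TPM in female BPAF 1, female DMSO 1 and female DMSO 2 only. The row cdc20 reached it in those libraries and female BPAF 3 only, and mcm3 in the exposed males only. Without female BPAF 1 the exposed comparison had 2 of 25 rows above 0 and a median of -0.87, against -0.89 for all genes. Without female DMSO 1 the control comparison had 15 of 25 rows above 0 and a median of 0.15, against -0.48 for all genes. With trimmed-mean scaling the medians of all genes moved to -0.03 and -0.01 and those of the members to 0.86 and 0.37, so the sign among exposed fish depends on the scaling. Among controls the calls of mcm3 and mcm7 were then lost (adjusted p = 0.0574 and 0.299), and among exposed fish mcm3 alone remained (0.0471). With quantile normalization none of these calls remained, and the adjusted p ran from 0.175 to 0.804. The direction of mcm3 and mcm7 was lower in females under both scalings and both treatments.

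Single libraries decided several of these calls. Among controls mcm3 was lost without male DMSO 2 (adjusted p = 0.0525) or female DMSO 1 (0.0643) and was below the filter without any 1 exposed male, and mcm7 was lost without male DMSO 1 (0.0795), male DMSO 2 (0.0888), female DMSO 2 (0.0755) or female DMSO 3 (0.0993). The control count was 1 without any 1 exposed male, male DMSO 1, female DMSO 1 or female DMSO 2, was 0 without male DMSO 2 and was 5 without female BPAF 1 (3 higher and 2 lower in females) or female DMSO 3 (4 higher and 1 lower). Among exposed fish it was 9 without female BPAF 1, 2 without male BPAF 1, male BPAF 3, female BPAF 2 or female BPAF 3, and 3 without male BPAF 2 or female DMSO 2. There, top2a was lost without male BPAF 1, female BPAF 2 or female BPAF 3 (0.0977 to 0.124), and mcm7 without male BPAF 2, male BPAF 3, female BPAF 2, female BPAF 3 or female DMSO 2 (0.0510 to 0.129). The call of pcna was lost without any 1 library other than male BPAF 2, female BPAF 1 or female DMSO 1 (0.0552 to 0.170). Calls over all tested genes moved as well. Among controls they ran from 909 of 11221 without female DMSO 1 to 3199 of 10767 without male BPAF 1. Among exposed fish they ran from 2919 of 11349 without female BPAF 3 to 5412 of 11258 without male DMSO 3. Without female BPAF 1 they were 5388 of 11139, and 25 member rows were tested.

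Leaving out the 3 female libraries with over 50 TPM of oocyte markers, a choice made after the values were seen, removed the libraries in which most members were highest, so lower female values follow from the choice and support nothing. Rows that passed the filter only through those libraries also dropped out. Among exposed fish 10 of the 18 rows then above the filter were called, all lower in females, as were 4402 of 10879 tested genes in either direction. The median of the members was -0.92 against -0.90 for all tested genes. Among controls female DMSO 3 alone stands for the females, so only the medians are given, -0.35 for the members and -0.50 for all tested genes. In the male comparison the median was 0.43 over the members and 0.24 over all tested genes.

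Further genes of the cycle were taken from lists of 51 replication genes, 66 mitosis genes and 49 regulators of S phase entry, of which 33, 25 and 30 were tested. None of these was called in either exposure comparison or in the difference between the responses. In males their medians were 0.23, 0.50 and 0.29, against 0.24 for all tested genes. In females they were -0.08, -0.11 and -0.08, against -0.01. The extended mitosis list summed to 129, 13.2 and 23.1 TPM in exposed females, 113, 55.4 and 19.9 TPM in control females, 70.4, 61.0 and 71.0 TPM in exposed males and 41.6, 38.4 and 50.6 TPM in control males, and so placed the same female libraries at the top and every exposed male above every control male. The male groups overlapped in the extended replication list, at 97.9 to 128 TPM in exposed and 81.05 to 113 TPM in control males. They also overlapped among the regulators (437 to 681 and 339 to 492 TPM). In females the regulators were highest in female BPAF 1 and female DMSO 3 (440 and 359 TPM).

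Between control females and control males, 3 of 33 further replication genes, 0 of 25 mitosis genes and 3 of 30 regulators were called. Lower in females were dtymk, the thymidylate kinase gene (-2.63 ± 0.71, SE, limma adjusted p = 0.0233), dhfr, for dihydrofolate reductase (-1.19 ± 0.32, 0.0239), rfc5, a clamp loader subunit (-0.98 ± 0.28, 0.0285), the retinoblastoma gene rb1 (-1.30 ± 0.34, 0.0208) and myca, a Myc transcription factor gene (-0.94 ± 0.24, 0.0187). The Myc relative mych was higher in females (1.69 ± 0.47, adjusted p = 0.0258). Between exposed females and exposed males the counts were 10 of 33, 2 of 25 and 8 of 30, of which mych alone was higher in females (1.84 ± 0.47, 0.0105). The lower genes with the smallest p were rfc5 (-1.49 ± 0.28, 0.00337), dhfr (-1.37 ± 0.32, 0.00775), rfc2 (-1.12 ± 0.28, 0.0105) and timeless (-1.0 ± 0.27, 0.0130) in replication, spc25, a kinetochore gene (-0.94 ± 0.22, 0.00771), and cks2, a Cdk-binding protein gene (-1.71 ± 0.41, 0.00867), in mitosis, and myca (-1.52 ± 0.24, 0.00184), lin37 (-1.67 ± 0.30, 0.00280) and lin52 (-1.94 ± 0.44, 0.00652), both of the complex that represses cell cycle genes in resting cells, and rb1 (-1.36 ± 0.34, 0.00975) among the regulators. Calls covered 23.3% of all tested genes among controls and 47.6% among exposed fish.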

How the data were processed

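The table deposited by the authors holds 1 value per gene and library, taken here as TPM from its column sums. Per the submitters' processing notes, which state neither role nor order, the tools were RSEM, Cufflinks and HISAT2 2.1.0. The sources used here give no genome build. Groups came from the labels. Genes at 1 TPM or more in at least 3 of 12 libraries were tested on log2(TPM + 1), a scale that understates changes of low genes, with limma 3.58.1 in R 4.3.3. The model had 4 group means, 8 residual degrees of freedom and a mean-variance trend, and p-values were adjusted by Benjamini-Hochberg over 11389 genes. The procedure was tested on simulated data with changes planted only in genes above the level of most members. That test therefore does not show which changes could be found in the members. Full values were printed for a panel of 16 members and for further members called in a comparison, and for each pathway list up to 4 called genes with the smallest p. The members and lists were chosen with earlier results of these data known.

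Alternatives were pseudocounts of 0.1 and 5, no filter and a filter at 5 TPM, trimmed-mean scaling and quantile normalization, the compared groups alone, a replicate block, and leaving out each library. Same-numbered male libraries deviated together from their group means (correlations of 0.327, 0.347 and 0.376). Differently numbered male pairs ranged from -0.235 to -0.120. Same-numbered female libraries had correlations of 0.226, 0.0526 and 0.104, and differently numbered female pairs ranged from -0.277 to 0.224. Between the sexes, however, male DMSO 3 and female BPAF 1 reached 0.356, and male DMSO 2 and female BPAF 2 reached 0.292. No label pairs the libraries, and whether the numbers do was not tested. The main model had no block, and the block within each sex was added after these values were seen. No sequence is shown, since the tables used here hold none.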

Additional observations from a re-analysis of the deposited data

How the results depend on the processing

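Both exposure comparisons and the difference between the responses gave 0 called members under every alternative run. The sex counts were less stable, as were those over all tested genes. Among controls 2655 of 11389 genes were called, with 1026 under trimmed-mean scaling and 890 under quantile normalization. Among exposed fish these counts were 5424, 695 and 678. With the filter at 5 TPM, 2152 of 5020 genes were called among controls and 3146 among exposed fish. With no filter the counts were 1639 of 25520 genes among controls and 5917 among exposed fish. With the compared groups alone they were 2329 of 11389 and 3902 of 11389. Among controls (2 called) the count was 1 with no filter, 1 with a filter at 5 TPM that left 5 rows, 0 under quantile normalization and 0 under trimmed-mean scaling. Leaving out 1 library gave 0 to 5. Among exposed fish (5 called) it was 2 with the filter at 5 TPM, 0 under quantile normalization, 1 under trimmed-mean scaling, 3 with the compared groups alone and 10 without the oocyte-marker libraries, and leaving out 1 library gave 2 to 9. With the replicate block the counts were 0 for both exposure comparisons and 0 for their difference. Among controls the count was then 3 (1 higher and 2 lower in females), and among exposed fish it was 5. Over all tested genes the replicate block gave 3123 of 11389 among controls and 5956 of 11389 among exposed fish. The block within each sex, which treats same-numbered libraries as paired, changed no exposure call of a member. The median in males (0.42) was 0.78 with a pseudocount of 0.1, 0.12 with a pseudocount of 5, 0.12 under quantile normalization and 0.18 under trimmed-mean scaling. The median in females (-0.23) was -0.65 with a pseudocount of 0.1, -0.06 with a pseudocount of 5 and -0.67 with the filter at 5 TPM. The median of the response difference was -1.64 with a pseudocount of 0.1, and that of control females against control males was -0.35 without the oocyte-marker libraries. Leaving out 1 library moved the median to 0.31 to 0.59 in males, -0.78 to 0.11 in females, -1.42 to -0.30 for their difference, 0.15 to 0.92 between the sexes among controls and -0.87 to 0.26 among exposed fish. The median over all tested genes moved too. In males it was 0.31 without male DMSO 1, where the members had 0.31, and 0.08 without male BPAF 1, where they had 0.31. With a pseudocount of 5 it was 0.12, as for the members. The filter at 5 TPM leaves fewer rows, and for the other settings the cause was not tested. Depth is unknown, so no counting error can be given for members near 1 TPM.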
